A study of Mus musculus with 2 samples.

Results

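Migratory dendritic cells are the dendritic cells that have switched on the chemokine receptor Ccr7 and the actin-bundling protein Fscn1. Here they were the 71 cell barcodes, of 18982 in all, that met a rule on 8 genes and on quality. Single-cell RNA-seq had been run on injured tibialis anterior muscle of mice 8 to 12 weeks old. One library came from the Setdb1 conditional knockout (KO) and one from wild type (WT), so the design held 1 library per group. Cells were freed with collagenase II and dispase, sorted on Hoechst and propidium iodide staining, captured in droplets and sequenced from transcript 3′ ends. The labels name neither the Cre driver nor the kind of injury, the time since it or how many animals entered each library. Injury is the one treatment that they give for both groups.

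Dendritic cells take up antigen in tissues and mature when they sense infection, damage or cytokines. On maturation they stop taking up antigen, load peptides on major histocompatibility complex (MHC) class II, display costimulatory molecules, and follow the Ccr7 ligands Ccl19 and Ccl21 through lymphatic vessels to the draining lymph node, where they meet T cells. The alternative NF-kB subunit Relb, dendrite formation by Fscn1, and secretion of the T-cell-attracting chemokines Ccl22, Ccl17 and Ccl5 are textbook features of that state. Setdb1 is the histone methyltransferase that places repressive trimethylation on lysine 9 of histone H3; it silences retroelements and is known to restrain many genes in other cell types.

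A barcode was eligible with at least 2000 unique molecular identifiers (UMIs, each counting 1 captured RNA molecule) and at most 10% of them from mitochondrial genes. It was a migratory dendritic cell with at least 2 UMIs of Ccr7 and at least 5 of Fscn1 and Ccl22 together, and at most 1 UMI each of the macrophage pair Csf1r and Adgre1 and of the stromal trio Pdgfra, Cdh5 and Cdh15. The counts of these genes chose the cells, so their levels are descriptions. So are all comparisons of these cells with others, since selected cells were set against unselected ones. Values are UMIs of a gene scaled to a common total (CPM) over the summed cells of a library. Brackets hold 95% intervals that cover counting error only: exact Poisson for CPM, exact Clopper-Pearson for shares, conditional binomial for ratios. With 1 library per group no difference has a replicate check, and each compares these 2 libraries.

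The rule found 32 cells among 10962 eligible KO barcodes and 39 among 8020 eligible WT barcodes. Their depth was a median of 8303 UMIs (2807 to 25233) and 1900.5 genes in KO cells, and 7830 UMIs (3968 to 14910) and 1873 genes in WT cells. Mitochondrial genes gave a median of 1.04% of UMIs in KO cells and 1.30% in WT cells. Summed, the cells held 289422 UMIs in the KO and 322481 in the WT library. The 2 libraries shared 26 eligible barcodes, and 0 migratory dendritic cells had a barcode that was a cell in the other library.

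Most cells lay well inside the rule. Ccr7 had 2 to 56 UMIs per cell in KO cells (median 16) and 3 to 49 in WT cells (median 13). Fscn1 and Ccl22 together had 5 to 77 UMIs in KO cells (median 17.5) and 6 to 50 in WT cells (median 14). Only 1 KO cell stood at the Ccr7 minimum and 1 KO cell at the Fscn1 and Ccl22 minimum, with 0 WT cells at either. Just outside, 2 KO and 3 WT barcodes missed by having 1 UMI of Ccr7. The larger excluded group, 59 KO and 62 WT barcodes, had Ccr7 but too little Fscn1 and Ccl22, and 44 KO and 46 WT barcodes of it had 0 UMIs of both. Those are Ccr7-bearing barcodes without the other genes of the state, and 6 KO and 6 WT barcodes came close, with 3 or 4 UMIs.

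The label was checked against a marker outside the rule. Cacnb3, a calcium channel subunit that marks these cells in mouse atlases, stood at 366 CPM [300 to 443] in KO cells and 357 CPM [294 to 428] in WT cells, and 28 of 32 KO and 34 of 39 WT cells carried it. In a set of Cd209a dendritic cells (the type 2 conventional lineage) Cacnb3 was at 0.956 CPM in the KO and 0 in the WT library. After thinning every cell to 2000 UMIs, 16 of 32 KO cells (50%, 31.9 to 68.1) and 43.6% of WT cells held a UMI of Cacnb3 (87.5% and 87.2% unthinned). In a macrophage set, where a UMI may be free RNA, the thinned share was 0.12% in the KO and 0.11% in the WT library at a median depth of 12235 and 12279 UMIs. The set of Xcr1 and Clec9a dendritic cells (the type 1 lineage) had 7.58 CPM of Cacnb3 in the KO and 1.03 CPM in the WT library.

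Markers of cell types other than conventional dendritic cells gave sums from 0 to 1441 CPM. Type 2 conventional markers summed to 2356 CPM in KO and 2447 CPM in WT cells, and type 1 markers to 1057 and 586 CPM. Summed markers of neutrophils were at 0 CPM in KO and 3.10 CPM in WT cells, with 11 and 10 of 11 genes at 0. Markers of muscle cells summed to 65.6 CPM in KO and 24.8 CPM in WT cells, those of endothelial cells to 48.4 and 68.2 CPM, and those of fibro-adipogenic cells to 308 and 239 CPM. Monocyte markers summed to 494 CPM in KO and 443 CPM in WT cells, plasmacytoid markers, mostly Bst2, to 591 and 614 CPM, and T and NK markers to 470 and 502 CPM. The 20 macrophage markers summed to 1441 CPM in KO and 1250 CPM in WT cells, with 1 gene at 0 in KO and 5 in WT cells; Lyz2 was at 311 CPM in KO and 257 CPM in WT cells, against 15408 and 14909 CPM in the macrophage set. Of 26 T and NK genes, 18 were at 0 in KO and 19 in WT cells, with 1 UMI of Cd3e in KO and 0 in WT cells, and most of the rest came from Klrk1, Il7r and Cd8a. A UMI of a T cell receptor or CD3 gene was present in 2 KO cells and 1 WT cell, and none held a UMI of a B cell gene. A doublet score marked 3 KO cells and 1 WT cell, which were kept. Setdb1 itself gave 5 UMIs in KO cells (17.3 CPM [5.61 to 40.3]) and 3 in WT cells (9.30 CPM [1.92 to 27.2]). These counts are too few to show a difference (ratio 1.86 [0.361 to 12.0]), and whether the captured 3′ end lies in the deleted part is not given.

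Migratory cells made up 0.292% [0.200 to 0.412] of eligible KO barcodes and 0.486% [0.346 to 0.664] of WT barcodes, a ratio of 0.600 [0.364 to 0.983]. The eligible barcodes differed in depth, with a median of 7391 UMIs in the KO and 10855.5 in the WT library, and the sort sets which cells enter either. With at least 5000 UMIs the shares were 0.427% (29 of 6786) in the KO and 0.565% (38 of 6722) in the WT library, a ratio of 0.756 [0.450 to 1.26]. Thinning those barcodes to 5000 UMIs before the rule gave 27 and 31 cells, a ratio of 0.863 [0.495 to 1.49]. The other dendritic sets were also smaller in the KO library, at 142 KO and 155 WT cells for Cd209a and 49 KO and 74 WT cells for Xcr1. Of the 3 dendritic sets together, migratory cells were 14.3% [10.0 to 19.6] in the KO and 14.6% [10.6 to 19.4] in the WT library.

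Ccr7, the receptor that steers the cells to lymph nodes (chr11:99144196-99155077 in GRCm38, minus strand), was at 2166 CPM [2000 to 2343] in KO cells and 1851 CPM [1706 to 2006] in WT cells. Per cell it ran from 348 CPM through a median of 2097 to 4871 CPM in KO cells, and from 249 through 1572 to 6109 CPM in WT cells, so the libraries overlapped throughout. Fscn1 (chr5:142960343-142973185, plus strand) was at 1911 CPM [1755 to 2077] in KO cells and 1665 CPM [1527 to 1812] in WT cells, and 2 cells in either library had none. In the 3 comparison sets Fscn1 lay between 0 and 8.61 CPM. Other genes of shape and movement were also high: Marcks, a membrane-bound actin regulator, was at 1244 CPM in KO and 1330 CPM in WT cells, against 248 to 775 CPM in the sets. Marcksl1 was at 1182 CPM in KO and 1445 CPM in WT cells, and in the sets between 36.2 and 267 CPM.

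**Figure D1:**
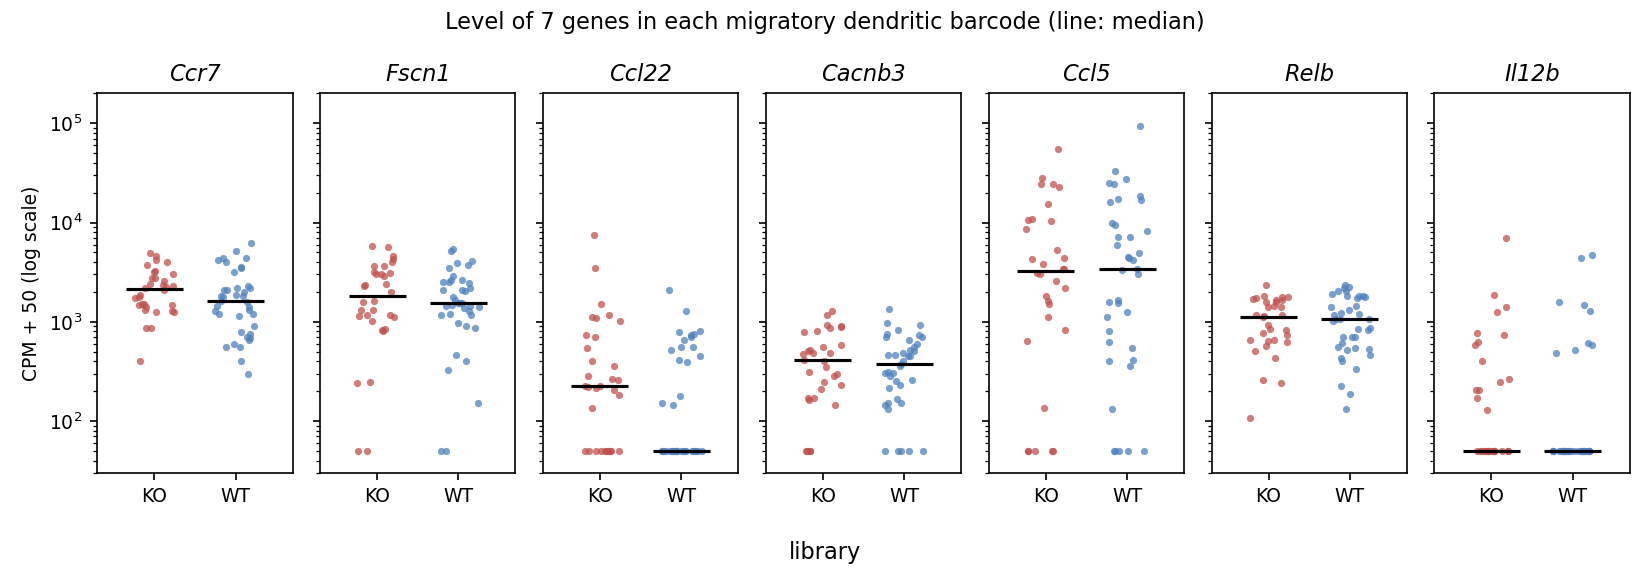
Level of 7 genes in each migratory dendritic cell, on a log axis of CPM + 50, with the 32 KO cells on the left of each panel and the 39 WT cells on the right. Lines are medians; cells at the bottom have no UMI, so Ccr7 and Relb fill every cell while Ccl22 and Il12b are missing from many.

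Ccl22, which draws T cells bearing the receptor Ccr4 (chr8:94745590-94751699, plus strand), differed between the libraries. It stood at 715 CPM [621 to 820] in KO cells and 319 CPM [261 to 387] in WT cells, a ratio of 2.24 [1.76 to 2.86]. A UMI was found in 22 of 32 KO cells and 17 of 39 WT cells. The thinned shares were 56.2% [37.7 to 73.6] in KO and 33.3% in WT cells, and 0.03% and 0.0368% in the macrophage set. Single cells weighed on the sums, with up to 60 UMIs in 1 KO cell and 29 in 1 WT cell; without the top cell of each library the log2 ratio was 1.11, beside 1.15 with it. Ccl22 is among the genes that chose the cells, so this difference has no independent standing.

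Ccl5, a chemokine that attracts T cells, was at 6503 CPM [6212 to 6803] in KO cells and 8704 CPM [8385 to 9032] in WT cells, and between 1.52 and 115 CPM in the comparison sets. Its level was uneven: cells ran from 0 through a median of 3187 to 54863 CPM in KO cells, and from 0 through 3348 to 93641 CPM in WT cells. One WT cell held 751 of 2807 UMIs. Its ratio of 0.747 [0.704 to 0.792] therefore rests partly on that cell, and the log2 ratio was -0.42 with and -0.19 without the top cell of each library. Il12b, the shared p40 chain of interleukins 12 and 23 that drives helper T cell responses, was at 646 CPM in KO cells and 450 CPM in WT cells. It was carried by 15 of 32 KO and 9 of 39 WT cells, with 110 UMIs in 1 KO cell and 67 in 1 WT cell. Its log2 ratio was 0.52 with and 0.15 without the top cell of each library. Il12b was at 0 in the Cd209a set of both libraries (0 of 142 KO cells, which allows a share of up to 2.11%). Cxcl16, a chemokine held on the membrane, was at 1043 CPM in KO and 1014 CPM in WT cells, and Ccl19 gave 0 UMIs in KO and 1 in WT cells.

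Not all chemokines were high in the migratory cells. Ccl4, which recruits monocytes and T cells, was at 38 CPM [19 to 68] in KO cells and 394 CPM [328 to 469] in WT cells. Both lay below the Cd209a set, where Ccl4 was at 1078 CPM in the KO and 2081 CPM in the WT library. The cytokine Tnf gave 5 UMIs in KO cells and 28 in WT cells, 12 of them in 1 cell.

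Some receptors were high in the migratory cells, though the receptor list as a whole was mixed (its counts are given with those of the maturation genes). The T cell costimulator receptor Tnfrsf4 (OX40) was at 432 CPM in KO cells and 335 CPM in WT cells, and at 0 in the Cd209a and Xcr1 sets of both libraries. Il2ra, the alpha chain of the interleukin 2 receptor, was at 121 CPM in KO and 109 CPM in WT cells, and at most 5.11 CPM in the sets. The interleukin 7 receptor chain Il7r was at 252 CPM in KO and 167 CPM in WT cells. Tnfrsf9 (4-1BB) was at 121 CPM [84.2 to 168] in KO cells and 37.2 CPM [19.2 to 65.0] in WT cells, a ratio of 3.25 [1.65 to 6.88], with 16 of 32 KO and 9 of 39 WT cells carrying it.

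The maturation programme stood out from the other myeloid cells in both libraries. Genes were compared with the highest of the 3 sets, taking those of at least 50 CPM in migratory cells of both libraries. Of 1826 such genes, 94 (5.15%) were at least 4-fold higher in both libraries, and 35 of the 50 maturation genes that reached that level were among them. That list was drawn up with earlier results of these data known and holds Ccr7, Fscn1 and Ccl22 of the rule, so its count is a description. Against the Cd209a set alone, 35 of 51 maturation genes were 4-fold higher and 0 lower, beside 3.99% higher and 4.97% lower of all 3482 genes. Against that set, migration and cytoskeleton genes had 4 of 41 higher and 5 lower, chemokines and cytokines 3 of 20 higher and 5 lower, and their receptors 5 of 27 higher and 3 lower. Against macrophages the receptors had 7 of 27 higher and 4 lower, beside 5.46% and 8.49% of all genes.

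Relb, the NF-kB subunit on which dendritic cell maturation depends, was found in every migratory cell. It was at 988 CPM [877 to 1110] in KO cells and 1008 CPM [901 to 1124] in WT cells, against 23.8 to 59.9 CPM in the sets. Thinned to 2000 UMIs, 81.2% of KO and 84.6% of WT cells still held it, against 10.6% and 10.3% of the Cd209a set. Traf1, an adaptor of TNF receptors, was likewise in every cell, at 1344 CPM in KO and 1262 CPM in WT cells, but the Cd209a set had 298 and 363 CPM. Il4i1, a secreted amino acid oxidase that restrains T cells, was at 947 CPM in KO and 995 CPM in WT cells, and at 1.03 to 41.1 CPM in the sets. Socs2, a feedback inhibitor of cytokine signalling, was at 453 CPM in KO and 521 CPM in WT cells, and at 0 to 7.30 CPM in the sets. These 4 genes differed little between the libraries, with log2 ratios between -0.20 and 0.09.

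Further genes with high folds over every set have known roles. Tbc1d4, a regulator of vesicle traffic, was at 1627 CPM in KO and 1414 CPM in WT cells, and the transmembrane protein Tmem123 at 1963 and 1671 CPM. Eno3, the muscle-type enolase of glycolysis, was at 753 CPM in KO and 502 CPM in WT cells, but at 5.94 to 18.6 CPM in the sets and 62.0 and 49.3 CPM in free RNA of the 2 libraries, which was read from barcodes of 20 to 100 UMIs. Apol7c, an apolipoprotein L family member, was at 308 CPM in KO and 431 CPM in WT cells, and Clu (clusterin) at 332 CPM in KO and 270 CPM in WT cells. Unlike Relb, Apol7c and Clu were in a minority of cells: Apol7c in 10 KO and 14 WT cells, and Clu in 10 KO and 10 WT cells. Asprv1, a protease known from the skin, was in 9 KO and 8 WT cells, with 73 of its 90 WT UMIs in 1 cell.

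**Figure D2:**
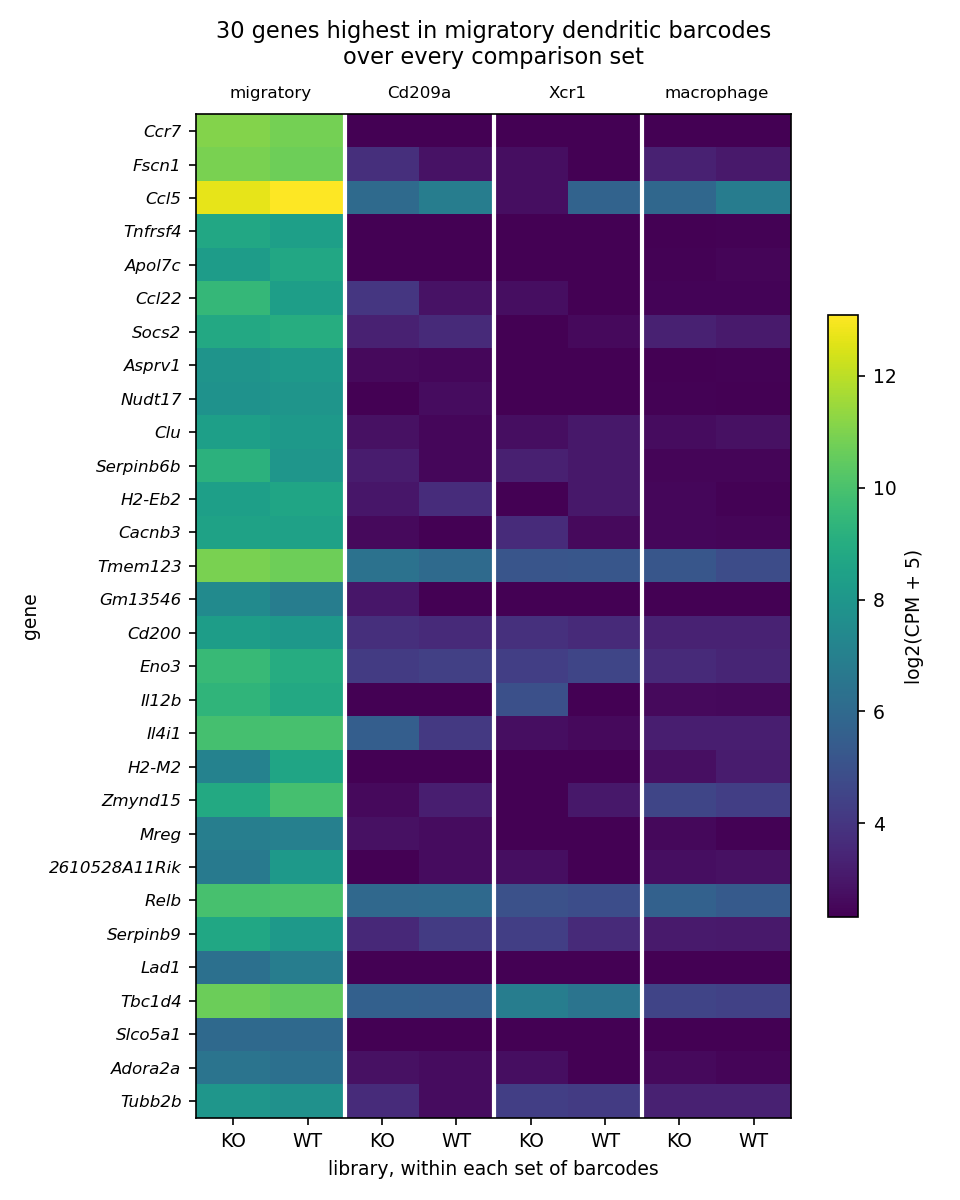
The 30 genes with the largest fold of migratory dendritic cells over every comparison set, as log2(CPM + 5), with columns for KO and WT within the migratory, Cd209a, Xcr1 and macrophage cells. Rows are bright in the 2 migratory columns and dark elsewhere; Ccl5, Relb, Tmem123 and Tbc1d4 keep a low level in the other sets. Ccr7 is 0 in the sets because it was used to define them.

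Costimulatory molecules gave smaller differences from the Cd209a set. Cd83, which stabilises surface MHC class II, was at 650 CPM in KO and 471 CPM in WT cells, against 390 to 411 CPM in the Cd209a and Xcr1 sets. Cd40, the receptor for helper T cells, was at 183 CPM in KO and 205 CPM in WT cells, and at 4.55 to 51.1 CPM in the sets. Cd86 was at 117 CPM [81.4 to 164] in KO cells and 68.2 CPM [42.8 to 103] in WT cells, near its 90.1 to 132 CPM in the sets. Of the 9 costimulation genes that could be compared with the Cd209a set, 0 were 4-fold higher and 1 was 4-fold lower. Against the Xcr1 set 2 of 9 were higher and 2 lower (5.19% and 4.19% of all genes). Against macrophages 2 of 9 were higher and 1 lower. Of the immune regulatory list, 5 of 15 genes were 4-fold higher and 2 lower than in the Cd209a set (3.99% and 4.97% of all genes). Against macrophages 5 of 18 were higher and 6 lower (5.46% and 8.49% of all genes). Among those higher, Cd274 (PD-L1) was at 145 CPM in KO and 158 CPM in WT cells, against 3.10 to 25.8 CPM in the sets, and Cd200 at 314 and 260 CPM, against 5.26 to 9.10 CPM. Il10 was not detected in the summed cells of either library, and Il6 gave 0 UMIs in KO and 1 in WT cells.

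NF-kB pathway genes other than Relb differed less from the other sets. Of the list, 2 of 21 genes were 4-fold higher than in the Cd209a set, 7 of 22 than in the Xcr1 set and 5 of 23 than in macrophages. Of all genes, 3.99% were 4-fold higher than in the Cd209a set, 5.19% than in the Xcr1 set and 5.46% than in macrophages. Nfkb2, the precursor of the partner of Relb, was at 207 CPM [158 to 267] in KO cells and 112 CPM [78.2 to 155] in WT cells, and Rel at 850 CPM in KO and 673 CPM in WT cells. The inhibitor Nfkbia, a target of the pathway it restrains, was at 1506 CPM in KO and 1259 CPM in WT cells. Sequence before the start sites was searched for the kappa B pattern, GGGA, any base, then TTTCC, on both strands, in RefSeq windows of 250 bases (GRCm38.p6). It occurs in 0.356% of 32851 such windows and in 0.414% of the 27025 genes they belong to. Among 25 pathway genes with a window, 3 held it (12%): Cyld, Nfkb2 and Nfkbia. Of the 94 genes 4-fold above every set, 73 had a window and 0 held the pattern; Ccr7, Relb and Ccl5 are not among the 73. The windows of Nfkb2 (chr19:46305680-46305929, plus strand) and Nfkbia (chr12:55492648-55492897, minus strand) are shown because both genes are pathway members measured here that hold the pattern, which is in capitals, 225 and 29 bases before the start.
Nfkb2: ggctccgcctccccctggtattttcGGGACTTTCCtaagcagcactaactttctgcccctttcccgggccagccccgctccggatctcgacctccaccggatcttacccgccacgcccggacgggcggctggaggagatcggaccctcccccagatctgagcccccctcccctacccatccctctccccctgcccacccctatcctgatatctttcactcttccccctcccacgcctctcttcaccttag
Nfkbia: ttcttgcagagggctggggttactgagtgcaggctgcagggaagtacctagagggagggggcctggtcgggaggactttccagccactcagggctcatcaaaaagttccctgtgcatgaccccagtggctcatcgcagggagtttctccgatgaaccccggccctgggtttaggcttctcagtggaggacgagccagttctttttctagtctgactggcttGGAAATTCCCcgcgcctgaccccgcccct

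A second pattern, GAAA, any pair of bases, then GAAA, the core of the interferon-stimulated response element, was searched in the same windows on both strands and occurs in 2.98% of them. Of the 73 genes, 5 held it (6.85%): 2610528A11Rik, Apol7c, Plxnc1, Serpinb9 and Stat4. None of the 25 pathway genes held it, and 3.46% of all genes with a window do. The window of Apol7c (chr15:77533316-77533565, minus strand) is shown because it has 2 overlapping copies, in capitals, 55 and 49 bases before the start. A match describes letters, not a bound site.
Apol7c: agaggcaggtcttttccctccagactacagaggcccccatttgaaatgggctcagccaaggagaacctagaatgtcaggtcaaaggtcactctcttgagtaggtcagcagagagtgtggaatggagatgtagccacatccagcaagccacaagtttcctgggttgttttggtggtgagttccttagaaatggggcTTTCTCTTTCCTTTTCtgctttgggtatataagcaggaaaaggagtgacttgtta

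Genes of survival and apoptosis, listed together, were a further group above the other sets. Against the Cd209a set 10 of 23 listed genes were 4-fold higher, against the Xcr1 set 12 of 22 and against macrophages 12 of 23. In each contrast 0 were 4-fold lower. Of all genes, 3.99%, 5.19% and 5.46% were higher in these 3 contrasts, and 4.97%, 4.19% and 8.49% lower. Birc2, an inhibitor of apoptosis that also controls Relb activation, was at 411 CPM in KO and 372 CPM in WT cells, against 15.7 to 29.9 CPM in the sets. Serpinb9, which blocks granzyme B, was at 422 CPM in KO and 276 CPM in WT cells, and its relative Serpinb6b at 608 CPM [522 to 705] in KO and 248 CPM [197 to 309] in WT cells. Bcl2a1d, of a family of near-identical Bcl2 relatives whose reads may be split between copies, was at 359 CPM in KO and 304 CPM in WT cells. Serpinb6b had a KO over WT ratio of 2.45 [1.87 to 3.23] and a UMI in 20 KO and 23 WT cells. Fas, a receptor that can trigger apoptosis, was also 4-fold above every set, at 93.3 CPM in KO and 83.7 CPM in WT cells. The raised genes are thus not survival genes alone.

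Antigen uptake was the reverse. Of the uptake and pattern recognition genes, 17 of 25 were 4-fold lower than in the Cd209a set and 22 of 27 lower than in macrophages, with 0 higher in either. The percentages for all genes were 4.97% lower than the Cd209a set and 8.49% lower than macrophages. Fcer1g, the signalling chain of Fc receptors, was at 456 CPM in KO cells and 719 CPM in WT cells, against 3946 and 4425 CPM in macrophages. The mannose receptor Mrc1 had 2 UMIs in KO and 2 in WT cells. Against the Xcr1 set 0 of 10 were higher and 1 lower, beside 4.19% lower of all genes. Cells with macrophage receptors had been left out by the rule, so part of the macrophage contrast was fixed by it. The Cd209a set had no such limit. Macrophage markers summed there to 16640 CPM in the KO and 7382 CPM in the WT library, against 1441 and 1250 CPM in migratory cells. The part of this in the Cd209a contrast was not tested.

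Class II presentation was split within its pathway. Of 19 class II genes, 1 was 4-fold higher and 5 lower than in the Cd209a set, beside 3.99% and 4.97% of all genes. Against the Xcr1 set 2 of 19 were higher and 2 lower, beside 5.19% and 4.19% of all genes. The median log2 ratio to the Xcr1 set was 0.01 in the KO and 0.04 in the WT library. Against the Cd209a set, the chain H2-Aa was level and H2-Ab1 was lower. H2-Aa was at 11834 CPM [11441 to 12237] in KO and 14723 CPM [14308 to 15148] in WT cells, against 11833 and 13929 CPM in the Cd209a set. H2-Ab1 was at 6009 CPM in KO and 6813 CPM in WT cells, against 10012 and 11613 CPM. The peptide-loading chaperone genes were lower, with H2-DMa at 149 CPM in KO and 223 CPM in WT cells, against 786 and 957 CPM in the Cd209a set. H2-DMb1 followed, at 149 CPM in KO and 242 CPM in WT cells, against 886 and 1140 CPM in that set, whereas its close relative H2-DMb2 was higher, at 166 and 260 CPM, against 91.8 and 108 CPM. H2-Eb2, a class II chain of unsettled function, was at 335 CPM in KO and 394 CPM in WT cells and at most 8.03 CPM in the sets. H2-DMb1 and H2-DMb2 are similar in sequence, as are H2-Eb1 and H2-Eb2, and the counting settings are not given, so shared reads could move between them. Ifi30, which reduces disulfide bonds in antigens, was at 3193 CPM in KO and 3337 CPM in WT cells, above the 632 to 2110 CPM of the sets.

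Class I genes were level with the sets or above them in the examples named. Psme2, an activator of the proteasome, was at 1859 CPM in KO and 1904 CPM in WT cells, against 207 to 606 CPM in the sets. B2m, the class I light chain, was at 3721 CPM in KO and 4248 CPM in WT cells, against 1489 to 3502 CPM. Psmb8, an immunoproteasome subunit, was at 1482 CPM in KO and 1668 CPM in WT cells, level with the 1128 and 1472 CPM of the Xcr1 set.

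Lineage genes did not place the cells in either conventional lineage. Of type 2 markers, 9 of 15 were 4-fold lower than in the Cd209a set, beside 4.97% of all genes. Of type 1 markers, 14 of 16 were 4-fold lower than in the Xcr1 set, beside 4.19% of all genes. Those sets were chosen on members of these lists. Cd209a gave 0 UMIs in KO cells and 6, all in 1 cell, in WT cells, and Xcr1 gave 8 in KO and 2 in WT cells. Irf8, the factor of the type 1 lineage, was at 518 CPM in KO and 326 CPM in WT cells, against 1698 and 1477 CPM in the Xcr1 set and 111 and 104 CPM in the Cd209a set. Batf3 was at 200 CPM in KO and 143 CPM in WT cells, and Id2, shared by conventional dendritic cells, at 1482 and 1256 CPM. S100a4, high in the type 2 lineage, was at 1866 CPM in KO and 1870 CPM in WT cells, against 946 and 833 CPM in the Cd209a set and 25.8 and 27.9 CPM in the Xcr1 set. Zbtb46, the marker of conventional dendritic cells as a whole, was at 27.6 CPM in KO and 27.9 CPM in WT cells, and at 0.482 and 0.488 CPM in macrophages.

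The cells differed most among themselves in Ccl5, Cst3, Cd74, Malat1, H2-Aa, Il1b, Il12b, Fabp5, H2-Eb1 and the gene model CT010467.1, the 10 genes of at least 100 CPM with the largest spread beyond Poisson counting in the less spread library. The variance of Ccl5 was 115 times that of counting alone in KO cells and 240 times in WT cells, while that of Relb was 3.49 and 3.10 times and that of Cacnb3 2.46 and 1.65 times. Class II genes divided the cells. The sum of H2-Aa, H2-Ab1, H2-Eb1 and Cd74 ran from 2019 through a median of 39460 to 161673 CPM in KO cells and from 1959 through 59395 to 127429 CPM in WT cells. Below a line of 10000 CPM, drawn after the values were seen, lay 6 KO and 7 WT cells. The highest of them was at 4194 CPM in the KO and 9958 CPM in the WT library, and the next cells above the line were at 13003 and 12957 CPM.

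Every cell had been chosen for Ccr7 and for Fscn1 and Ccl22, so their presence in the low class II cells was fixed by the rule. Ccr7 was at 2150 CPM in the 6 low KO cells and 2346 CPM in the 7 low WT cells, against 2170 and 1763 CPM in the remaining cells. Fscn1 was at 2905 CPM in low KO and 2655 CPM in low WT cells, against 1688 and 1490 CPM. Ccl5 was at 13919 CPM in low KO and 26239 CPM in low WT cells, against 4839 and 5593 CPM in the rest. Of the 1275 Ccl5 UMIs in low WT cells, 751 were in 1 cell. All 13 low cells held Relb.

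Some genes beyond the class II chains were at 0 in the low cells. Ciita, the transactivator that class II genes need, gave 0 UMIs in the low cells of both libraries and 18 in the other KO and 33 in the other WT cells. H2-DMb1, Cd86, Ly9 and Tnfsf9 were likewise at 0 in the low cells of both, with 43 and 78, 34 and 22, 23 and 41, and 31 and 34 UMIs in the other KO and WT cells. Ly9 and Tnfsf9 were each in 5 of 26 other KO cells and 11 of 32 other WT cells, so 0 in 6 or 7 cells does not resolve a difference. The 3-UMI floor in the low cells was 56.6 CPM in the KO and 61.7 CPM in the WT library, against 76.1 and 120 CPM of Ciita and 144 and 80.3 CPM of Cd86 in the other cells, so a lower level is only partly resolved. Ccl22 was at 566 CPM in low KO cells, with 28 of its 30 UMIs in 1 cell, and at 0 in low WT cells. The noncoding RNA Gas5 was higher, at 1301 CPM in low KO and 1564 CPM in low WT cells, against 393 and 420 CPM in the others. Arhgap31, a regulator of Rac and Cdc42, was at 264 CPM in low KO and 370 CPM in low WT cells, against 102 and 40.2 CPM. The low cells had a lower median depth, at 5697.5 UMIs in the KO and 7431 in the WT library, against 8637 and 8487.5. The deepest KO cell was nevertheless a low cell and held 25233 of the 53021 UMIs of the low KO cells, so it weighs on their sums. The median mitochondrial share of the low cells was 1.43% and 1.58%, against 1.04% and 1.25%. The part of depth or quality in this division was not tested, and genes other than the class II chains were picked after their values were seen.

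**Figure D3:**
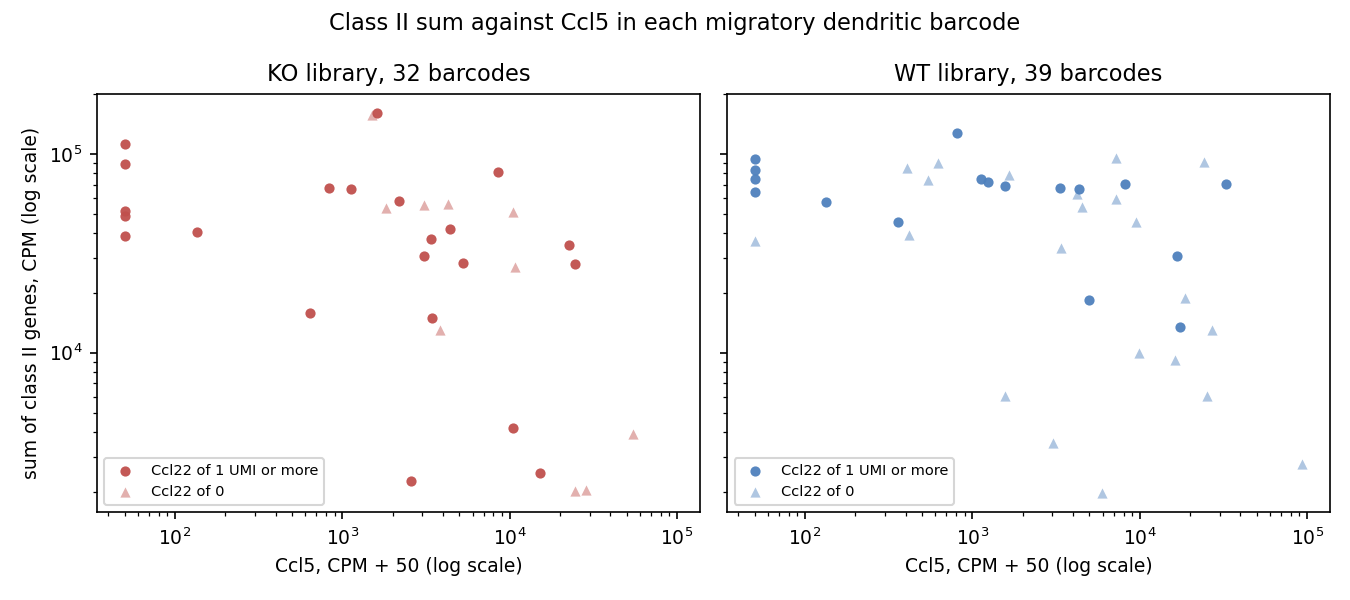
Sum of H2-Aa, H2-Ab1, H2-Eb1 and Cd74 (CPM, log axis) against Ccl5 (CPM + 50, log axis) in each of the 32 KO cells and 39 WT cells. Circles carry Ccl22 and triangles do not. Cells below 10000 CPM of class II, 6 KO and 7 WT, all have Ccl5. Cells without Ccl5 lie at the left edge, all above 10000 CPM of class II.

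Over all cells, the low ones included, the class II sum ran against Ccl5, with a Spearman correlation of -0.60 over 32 KO cells and -0.45 over 39 WT cells, and against Fscn1, at -0.62 and -0.46. It ran with Ccl22, at 0.37 in KO and 0.31 in WT cells, and hardly with Ccr7, at -0.01 and -0.07, or with depth, at 0.11 and 0.22. Among the 26 KO and 32 WT cells at or above the line, the correlations were -0.40 and -0.34 with Ccl5, -0.53 and -0.28 with Fscn1, and 0.38 and 0.08 with Ccl22, so the last was weak in WT cells. Ccl22 and Fscn1 ran against each other, at -0.39 in KO and -0.42 in WT cells, but the rule used their sum and so favours such a pattern. CPM of a cell share 1 total, and correlations over few cells describe these cells only. Among 1136 genes of at least 100 CPM, ranked by the smaller of the 2 correlations, genes much like Fscn1 included Gyg (0.51 in KO and 0.64 in WT cells) and Tmem123 (0.51 and 0.51), and those most like Ccl5 were 2410006H16Rik (0.56 and 0.52) and Fscn1 (0.47 and 0.41). Il12b was nearest to Ncoa7 (0.52 and 0.63). A separate pair, the fatty acid binding protein Fabp5 and S100a4, ran together at 0.64 in KO and 0.61 in WT cells.

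Between the libraries, 3161 genes with a mean of at least 30 CPM were compared on log2 of CPM + 5. The median gene was at 0.06, and 1768 (55.9%) were higher and 1393 (44.1%) lower in the KO library. A 2-fold difference was reached by 151 genes (4.78%) higher and 93 (2.94%) lower, 244 (7.72%) in all, of which 180 (5.69% of those compared) had an interval apart from 1. Leaving out, for each gene, the cell with most of its UMIs in each library gave 122 higher and 79 lower, and 134 of the 244 genes stayed past 2-fold. Of the 10 highest genes 5, and of the 10 lowest 2, had at least 50% of their UMIs in 1 cell. Leaving out cells with 2 or more UMIs of T, NK or B cell markers and those with the highest doublet scores left 6 KO and 5 WT cells, and Il7r, one such marker, was in 21 KO and 23 WT cells. In those few cells Ccl22, Ccl5, Ccl4 and the maturation and NF-kB medians turned direction.

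Of the 10 highest genes in KO cells, 5 did not have most of their UMIs in 1 cell. Grasp, a scaffold of receptor traffic, was at 380 CPM [312 to 458] in KO cells and 93.0 CPM [62.8 to 133] in WT cells, a ratio of 4.09 [2.71 to 6.34], in 20 of 32 KO and 13 of 39 WT cells. Cd81, a tetraspanin, was at 321 CPM in KO and 62.0 CPM in WT cells, in 15 KO and 12 WT cells, with up to 26 UMIs in 1 KO cell; its level in free RNA was 265 CPM in the KO and 285 CPM in the WT library, and its log2 ratio was 0.79 under a looser rule (at least 1 UMI of Ccr7 and 3 of Fscn1 and Ccl22), beside 2.28. Celf1, an RNA-binding protein, had 17 UMIs over 14 KO cells and 2 UMIs over 2 WT cells. Fosl2, a subunit of the AP-1 factor, had 19 UMIs over 9 KO cells and 0 in WT cells. Its ratio was 7.06 with the WT count set to a floor of 3 UMIs, a value that leaves out counting error. Genes with 0 WT UMIs passed the level filter through KO cells alone. Gcnt2, a glycosyltransferase, had 40 UMIs over 9 KO cells and 7 over 6 WT cells.

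The other 5 of the 10 highest rested on 1 cell. Cxcl9, an interferon-gamma-induced chemokine, had 30 UMIs in KO and 0 in WT cells, with 27 in 1 KO cell. Cd70, a costimulatory ligand, had 20 UMIs in KO and 0 in WT cells, 18 of them in 1 cell. Ccl17, the companion ligand of Ccl22, had 23 UMIs in KO cells, 20 in 1 cell, and 1 in WT cells. Hopx had 14 of 26 KO UMIs in 1 cell, against 4 UMIs in WT cells, and Areg 11 of 22, against 3. Areg had a log2 ratio of 0.47 under the looser rule. Past 2-fold they stayed without that cell, but on a handful of UMIs.

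Genes lower in KO cells were led by Ccl4, at a ratio of 0.10 [0.05 to 0.18], with 11 UMIs in KO cells and 127 in WT cells, 52 of them in 1 cell. H2-M2, a nonclassical class I gene, was at 131 CPM [92.9 to 180] in KO and 397 CPM [331 to 472] in WT cells, in 6 of 32 KO and 14 of 39 WT cells. Phf11a, an interferon-induced gene, had 23 UMIs over 13 KO cells and 72 over 24 WT cells. Hes1, the Notch target, had 1 UMI in KO and 21 in WT cells, with a log2 ratio of -0.51 under the looser rule, beside -3.05. Cybb, the catalytic subunit of the phagocyte oxidase, had 5 UMIs in KO and 37 in WT cells, and Ms4a6c 7 and 34 (-0.79 under the looser rule, beside -1.92). Both are abundant in macrophages, at 628 and 576 CPM for Cybb and 968 and 1030 CPM for Ms4a6c, and in free RNA. Subtracting free RNA at an assumed 5% gave log2 ratios of -3.94 for Cybb and -4.13 for Ms4a6c, beside -2.43 and -1.92. The true share of free RNA in these cells was not tested. Cebpd (30 of 45 WT UMIs) and H2ac8 (21 of 26) rested on 1 WT cell, and H2ac8 was no longer past 2-fold without it, and Hspb1 had 41 of 93 WT UMIs in 1 cell. Zmynd15, outside the ranked 10 but a maturation gene past 2-fold, was at 460 CPM [385 to 545] in KO and 971 CPM [866 to 1084] in WT cells, a ratio of 0.473 [0.384 to 0.582]. It was in 17 of 32 KO and 30 of 39 WT cells (34.4% and 56.4% when thinned). AC160336.1 (ENSMUSG00000115801), a gene model singled out after its values were seen, had 0 UMIs in KO cells and 33 UMIs over 19 WT cells. It differed in all cells of the libraries, at 4.13 CPM in KO and 377 CPM in WT macrophages and 4.72 and 401 CPM in free RNA.

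**Figure D4:**
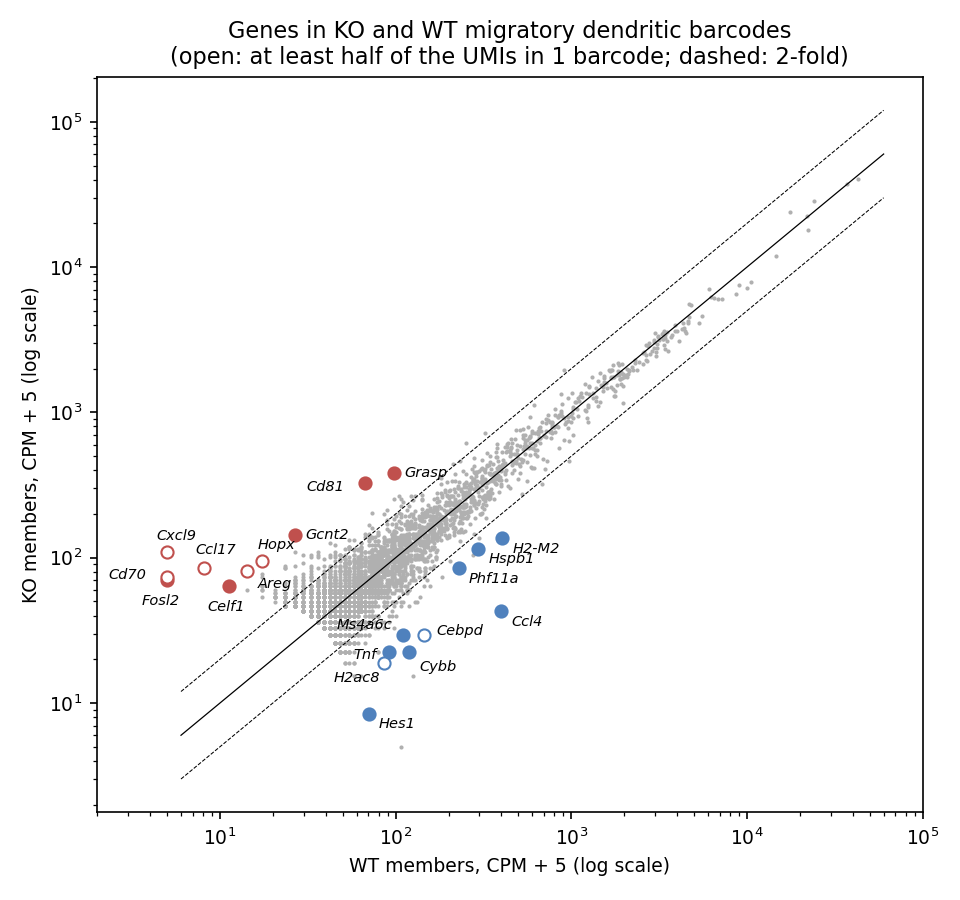
Each gene's level in KO cells (vertical) against WT cells (horizontal), both as CPM + 5 on log axes; dashed lines mark 2-fold. Named points are the 10 highest (red) and 10 lowest (blue) KO genes by interval, and open symbols have at least 50% of their UMIs in 1 cell; most genes above about 1000 CPM lie between the dashed lines.

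List medians between the libraries lay between -0.31 and 0.48. Of 17 class II genes, 15 were lower in KO cells, with a median log2 ratio of -0.31 and 0 past 2-fold. The Cd209a set gave -0.21 (13 of 19 lower), the Xcr1 set 0.02 (8 of 19 lower) and the macrophage set -0.11 (11 of 14 lower). The mean of CPM per cell in place of the sum gave -0.18. The deepest KO cell, a low class II cell, was also left out in an alternative chosen after seeing the data. The log2 ratios were then -0.19 for H2-Aa, -0.19 for Cd74 and -0.29 for H2-Eb1. With that cell they were -0.32, -0.31 and -0.42. Of 23 class I genes, 17 were lower, with a median of -0.17, as they were in the 3 sets at -0.33, -0.26 and -0.27. Within class I, H2-K1 was at 2422 CPM in KO and 3030 CPM in WT cells and H2-D1 at 3493 and 4509 CPM.

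Interferon-stimulated genes gave another median in these cells than in the sets. It was -0.05 in migratory cells, with 16 of 32 higher and 16 lower, while it was -0.72 in the Cd209a set (44 of 47 lower), -0.57 in the Xcr1 set (32 of 39 lower) and -0.61 in macrophages (48 of 50 lower). Different genes passed the level filter in each set, and the difference between sets was not tested. The median in migratory cells was -0.32 under the looser rule, -0.20 under a stricter rule (at least 3 and 10 UMIs) and 1.22 in the 6 KO and 5 WT cells left without possible doublets. Single genes were lower in KO migratory cells too, with Isg15 at 401 CPM in KO and 704 CPM in WT cells and Mx1 at 89.8 and 198 CPM. Others were not: Irf7 was at 155 CPM in both, and Gbp5 at 93.3 CPM in KO and 46.5 CPM in WT cells. Free RNA held Isg15 at 294 CPM in the KO and 619 CPM in the WT library.

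The maturation list had 36 of 55 genes higher and 19 lower, with a median of 0.14, 4 past 2-fold higher and 2 lower. The NF-kB pathway had 18 of 23 higher and a median of 0.26, with Nfkbie at 114 CPM in KO and 49.6 CPM in WT cells and Rela at 93.3 and 46.5 CPM. The same list gave 0.25 in the Cd209a set, 0.06 in the Xcr1 set and 0.36 in macrophages, where 19 of 19 were higher. Lineage factors had 16 of 18 higher and a median of 0.48, beside 0.22, 0.19 and 0.29 in the sets; Tcf4 was at 100 CPM in KO and 24.8 CPM in WT cells, and free RNA held 230 and 219 CPM of it. Survival and apoptosis genes had 16 of 21 higher, at 0.22, and migration genes 27 of 37, at 0.20. Vim, one of the 4 migration genes past 2-fold, owed 261 of its 563 KO UMIs to 1 cell. Cholesterol genes had 11 of 12 higher, at 0.31, with Hmgcs1 at 111 CPM in KO and 46.5 CPM in WT cells. Immediate early and heat shock genes, which dissociation of tissue can raise, stood at 0.05, with 18 of 33 higher. Costimulation (7 of 10 higher, 0.10), regulatory (6 of 13, -0.07), chemokine (10 of 18, 0.14), receptor (17 of 24, 0.23), glycolysis (8 of 11, 0.27), retroelement-silencing (6 of 10, 0.07) and uptake genes (3 of 7, -0.05) had the counts higher and medians given in brackets, beside the all-gene median of 0.06.

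**Figure D5:**
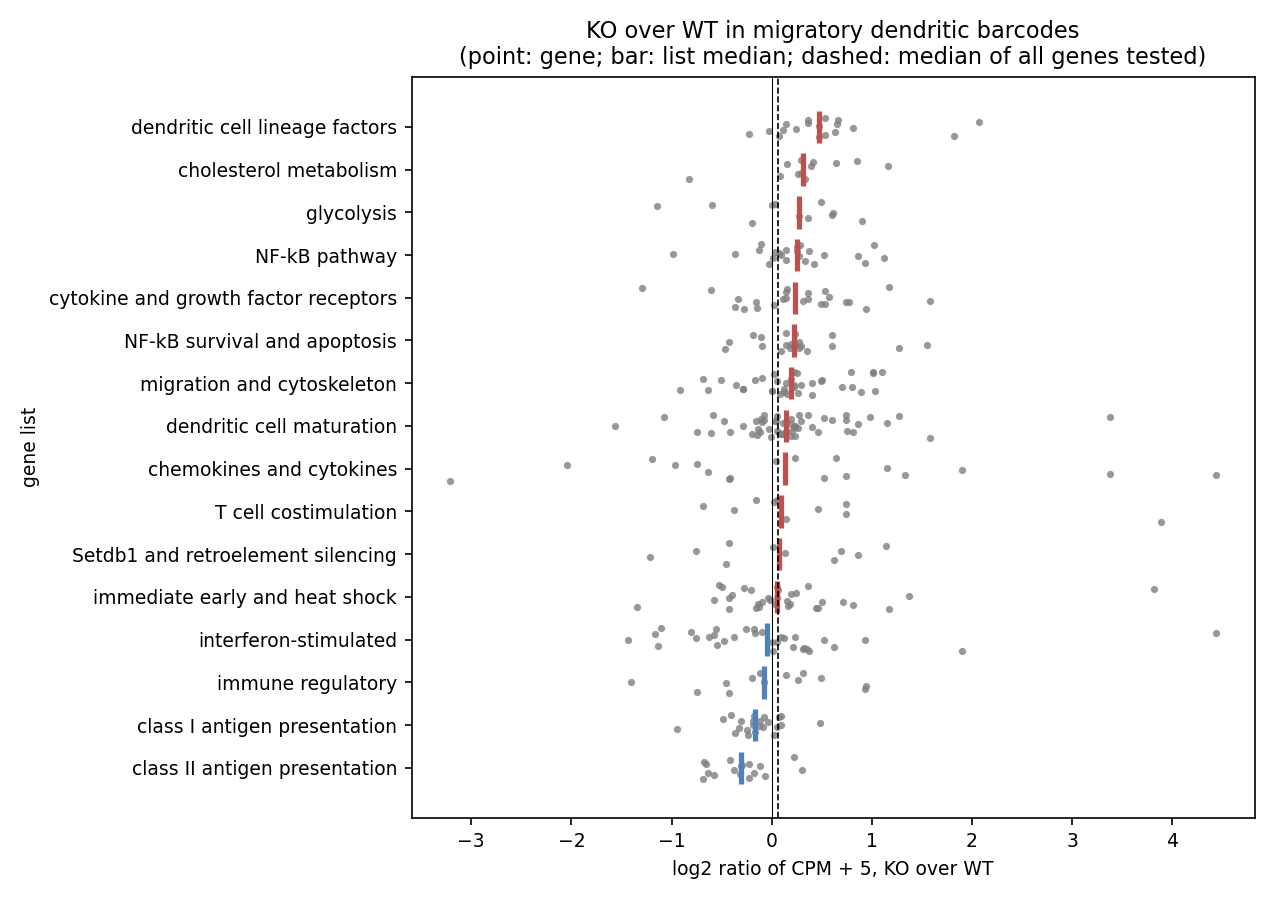
Log2 ratio of CPM + 5, KO over WT, for each gene (points) of 16 lists in migratory dendritic cells, with list medians as bars and the all-gene median of 0.06 dashed. Lineage factors lie furthest to the right at 0.48 and class II genes furthest to the left at -0.31, and single genes spread well beyond any list median.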

How the data were processed

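The deposited values were UMI counts per gene and barcode for 1 KO and 1 WT library of injured mouse muscle, unfiltered, with 55487 genes and 138667420 UMIs in the KO and 121703522 in the WT library. The submitters' processing notes name STAR 2.7.8a, STARsolo 2.7.9a, Seurat 4.0.1 and the build GRCm38; the labels state neither the annotation release nor how reads were counted. Gene coordinates are from GENCODE M21 and promoter windows from RefSeq (GRCm38.p6).

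Cells and comparison sets were taken by thresholds on marker UMIs, with no clustering. The Cd209a set needed 2 or more UMIs of Cd209a and 0 of Xcr1 and Clec9a. The Xcr1 set needed 3 or more of Xcr1 and Clec9a together and 0 of Cd209a. The macrophage set needed 5 or more of Csf1r and Adgre1 together and 0 of the 3 dendritic genes. All had 0 of Ccr7 and at most 1 of the stromal genes. UMIs were summed per library and scaled to CPM; log2 ratios added 5 CPM and used genes with a mean of at least 30 CPM. With 1 library per group no p-value was computed. Doublet scores came from Scrublet (scanpy 1.11.5), whose own threshold called 0 of 10962 KO and 139 of 8020 WT barcodes, so the highest scores, 0.8% per 1000 barcodes, were marked; marked cells stayed in. Genes named were the markers, rule genes and Setdb1, and the 10 highest and 10 lowest by the interval bound nearest 1. That ranking left out mitochondrial, ribosomal, haemoglobin and immunoglobulin genes, Xist, Y-linked genes and unnamed gene models. X-linked genes other than Xist stayed in. Also named were the 20 genes with the largest fold over the highest set and the 10 most uneven genes. Of each list, up to 6 highest members and those past 2-fold were named. Members and lists were chosen with earlier results of these data known. Python 3.11, numpy 2.4.6, scipy 1.17.1, pandas 2.3.3 and matplotlib 3.10.9 were used, and the ratio calculation was tested on simulated data. Alternatives varied the rule, depth, filters, scaling, free RNA and doublets. Intervals cover counting error only, since molecules of 1 library are no replicates.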

Additional observations from a re-analysis of the deposited data

How the results depend on the processing

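The KO over WT share ratio kept its direction in every alternative run, between 0.580 and 0.863, beside 0.600 as reported. Genes 2-fold higher numbered 249 under a looser rule, 640 without possible doublets, 24 at a mean of at least 100 CPM and 1086 with no filter, beside 151; genes 2-fold lower numbered 975, 12 and 1099 in the last 3 of these, beside 93. An 8-fold line left 41 of the 94 genes above every set. The class II median was -0.18 with the mean of CPM per cell, and the maturation median 0.0096 under the looser rule, where 113 of the 244 genes stayed past 2-fold, Hspb1 (log2 ratio 0.038) and Tmem123 (-0.10) turned direction, and Areg (0.47), Cd81 (0.79), Hes1 (-0.51), Ms4a6c (-0.79) and Ccl22 (0.98) fell short of 2-fold.

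The alternative without possible doublets left 6 KO and 5 WT cells. There the medians were -0.30 for maturation, -0.59 for NF-kB, 0.11 for class I, -0.22 for lineage factors and -0.16 for survival and apoptosis genes. Other lists that moved were interferon-stimulated (1.22), cell cycle (-1.48), costimulation (-0.42), glycolysis (1.09), immune regulatory (-0.57) and immediate early genes (-0.17). Of 48 genes followed, 20 changed sign. For 13 of them the ratio's interval had lain apart from 1, and their log2 ratios were 1.60 for Apol7c, -0.13 for CT010467.1, -0.30 for Ccl22, 4.55 for Ccl4, 2.54 for Ccl5, -0.54 for Ccr7, 0.49 for Cybb, 0.62 for Fabp5, 4.80 for Hspb1, -0.90 for Il12b, 0.13 for Ms4a6c, 1.41 for Phf11a and -0.12 for Tmem123. The other 7 included Clu (-3.35), Asprv1 (3.31), H2-Eb2 (1.37), Il4i1 (1.26) and Cd200 (-0.57). Fewer cells are part of that alternative by construction; any further cause was not tested. Leaving out only cells with a T cell receptor, CD3 or B cell UMI, chosen after seeing the data, kept 30 KO and 38 WT cells and 211 of the 244 genes past 2-fold. No paired analysis was possible because each group holds 1 library. Depth limits genes of few UMIs, Setdb1 among them.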
